A study of Homo sapiens with 15 samples.

Results

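Granulocytes store a set of proteins in cytoplasmic granules. Followed here across all 15 libraries were 10 genes, most of which encode such proteins: MPO, ELANE, PRTN3, AZU1, CTSG, MS4A3, PRG2, RNASE2, RNASE3 and CFD. They were chosen by gene symbol, as the 10 matching entries among 19604 coding genes in each of the study's 2 expression tables. The libraries were made from total RNA of OCI-AML5, an established human acute myeloid leukemia cell line grown in Alpha MEM with 20% fetal bovine serum and 10 ng/mL GM-CSF, so all groups share this cytokine. There were 5 groups of 3 libraries. For the drug experiment these were untreated control cells, cells given 1000 nM OTX015 for 4 hours and cells given 1000 nM ARV-825 for 4 hours. For the knockdown experiment they were cells transduced for 72 hours with a non-targeting shRNA (sh-NT, written shNT here) or with an shRNA against RUNX1. OTX015 inhibits the BET bromodomain proteins, and ARV-825 joins the OTX015 warhead to a cereblon ligand so that BET proteins are ubiquitinated and degraded. The study's title places it in leukemia cells with mutant RUNX1, a transcription factor of blood cell development. All libraries come from 1 cell line, and the labels name no vehicle for the untreated cells and describe 1 RUNX1 shRNA group.

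The azurophil (primary) granules of neutrophils are filled at the promyelocyte stage. MPO encodes myeloperoxidase, which makes hypochlorous acid, while ELANE, PRTN3 and CTSG encode the serine proteases neutrophil elastase, proteinase 3 and cathepsin G, and AZU1 encodes azurocidin, a related protein without protease activity. MS4A3 encodes a membrane protein of granulocyte-monocyte progenitors and basophils, not a stored granule protein, and is counted among the granule genes only for short. RNASE2, RNASE3 and PRG2 encode the eosinophil-derived neurotoxin, the eosinophil cationic protein and the major basic protein, which are best known from eosinophil granules, although RNASE2 is also made in monocytes and neutrophils. CFD encodes complement factor D (adipsin), a serine protease of the alternative complement pathway. Most of these genes are switched on early in granulocyte development and off again as the cells mature.

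In the RefSeq gene order on GRCh38.p14, AZU1, PRTN3, ELANE and CFD are consecutive coding genes on chromosome 19, and RNASE3 and RNASE2 are consecutive on chromosome 14, which also holds CTSG. MPO lies on chromosome 17, and PRG2 and MS4A3 lie apart from each other on chromosome 11. RefSeq promoter sequences were at hand for 7 of the 10 genes, and the 250 bases before the transcript start are shown for the 5 that hold the letters TTGCNNAA, a form of the site bound by C/EBP factors, which drive granulocyte genes. The sets are shown because 2 are chromosome 19 neighbors, 2 are recent gene copies and MS4A3 holds 2 matches. Capitals mark the match, on either strand. The windows are, on GRCh38.p14 and on the plus strand, chr19:840749-840998 for PRTN3, chr19:827587-827836 for AZU1, chr11:60056415-60056664 for MS4A3, chr14:20955237-20955486 for RNASE2 and chr14:20891135-20891384 for RNASE3.
PRTN3: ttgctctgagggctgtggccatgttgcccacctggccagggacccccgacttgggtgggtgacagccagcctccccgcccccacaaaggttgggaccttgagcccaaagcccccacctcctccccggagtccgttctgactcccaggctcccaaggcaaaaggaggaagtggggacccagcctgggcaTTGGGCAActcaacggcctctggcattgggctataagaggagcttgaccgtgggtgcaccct
AZU1: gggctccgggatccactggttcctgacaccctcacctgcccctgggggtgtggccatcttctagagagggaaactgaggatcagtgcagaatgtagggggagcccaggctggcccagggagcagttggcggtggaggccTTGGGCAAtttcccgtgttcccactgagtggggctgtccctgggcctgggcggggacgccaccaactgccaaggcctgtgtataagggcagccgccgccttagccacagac
MS4A3: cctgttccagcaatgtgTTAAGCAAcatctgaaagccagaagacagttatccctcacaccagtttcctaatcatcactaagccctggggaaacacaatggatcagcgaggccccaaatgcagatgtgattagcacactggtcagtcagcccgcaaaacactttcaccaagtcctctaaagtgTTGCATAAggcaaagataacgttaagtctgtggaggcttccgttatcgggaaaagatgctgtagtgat
RNASE2: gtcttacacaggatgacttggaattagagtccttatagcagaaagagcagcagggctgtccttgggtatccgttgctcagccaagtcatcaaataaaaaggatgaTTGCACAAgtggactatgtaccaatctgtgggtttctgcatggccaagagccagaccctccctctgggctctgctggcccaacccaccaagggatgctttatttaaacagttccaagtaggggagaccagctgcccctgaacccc
RNASE3: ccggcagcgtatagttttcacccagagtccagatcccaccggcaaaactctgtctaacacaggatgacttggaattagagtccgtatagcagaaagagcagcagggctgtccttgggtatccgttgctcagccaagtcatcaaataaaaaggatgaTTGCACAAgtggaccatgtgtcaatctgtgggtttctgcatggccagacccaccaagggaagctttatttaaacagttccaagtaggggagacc

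The 8 letters are TTGGGCAA in both PRTN3 and AZU1, starting 62 and 111 bases before the transcript start, and TTGCACAA in both RNASE2 and RNASE3, starting 145 and 94 bases before it. The RNASE2 and RNASE3 windows share a run of 86 identical bases that contains the match. The first 20 transcript bases that follow the RNASE3 window were not found in a GENCODE release 29 transcript of RNASE3, so its start is the less certain of the 2. Of 35116 RefSeq promoter windows of this length, 9.05% hold TTGCNNAA. Neither the RUNX letters TGTGGT nor TGCGGT occurred on either strand in the 7 windows, against 16.31% of all windows. The PU.1 letters GAGGAA were in 2 of the 7 (PRTN3 and CTSG) and in 23.57% of all windows, the MYB letters AACTG or AACGG in 6 of 7 and 45.63%, and the GATA letters AGATAA in 1 of 7 (MS4A3) and 9.17%. No C/EBP match shared bases with a match of another motif. These matches are letters in a sequence, and no binding was measured.

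The values were read as quantile normalized FPKM, a unit that no label states. FPKM is scaled to transcript length and library size, so on that reading levels can be set beside each other between genes of different length. In the untreated cells the order ran from RNASE2 at 178 ± 9.65 FPKM (SD, n = 3), through MS4A3 at 50.3 ± 4.01, CFD at 13.4 ± 0.370, RNASE3 at 12.8 ± 1.61, PRG2 at 5.76 ± 0.849, CTSG at 3.25 ± 0.341, AZU1 at 1.76 ± 0.222 and MPO at 1.01 ± 0.132, to PRTN3 at 0.364 ± 0.0706 and ELANE at 0.0329 ± 0.0350. Only CFD and RNASE3 had overlapping ranges among neighbors in this order. OCI-AML5 thus carried much more RNASE2 message than message of the azurophil serine proteases, and ELANE was close to the floor of the measurement. In the cells with the non-targeting shRNA the order was RNASE2, MS4A3, CFD, RNASE3, CTSG, MPO, AZU1, PRTN3, ELANE and PRG2. There the ranges of MS4A3 and CFD overlapped, as did those of RNASE3 and CTSG.

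The untreated control cells and the cells with the non-targeting shRNA had different levels of PRG2. It read 6.33, 6.16 and 4.78 FPKM in the 3 control libraries of the drug experiment, and 0.0779, 0.140 and 0.264 FPKM in the 3 shNT libraries. CTSG went the other way, with 2.86, 3.50 and 3.39 FPKM in control and 12.4, 11.1 and 12.2 FPKM in shNT. The 2 tables were normalized separately and differ in transduction and culture time, so these values stand side by side without a test.

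**Figure D1:**
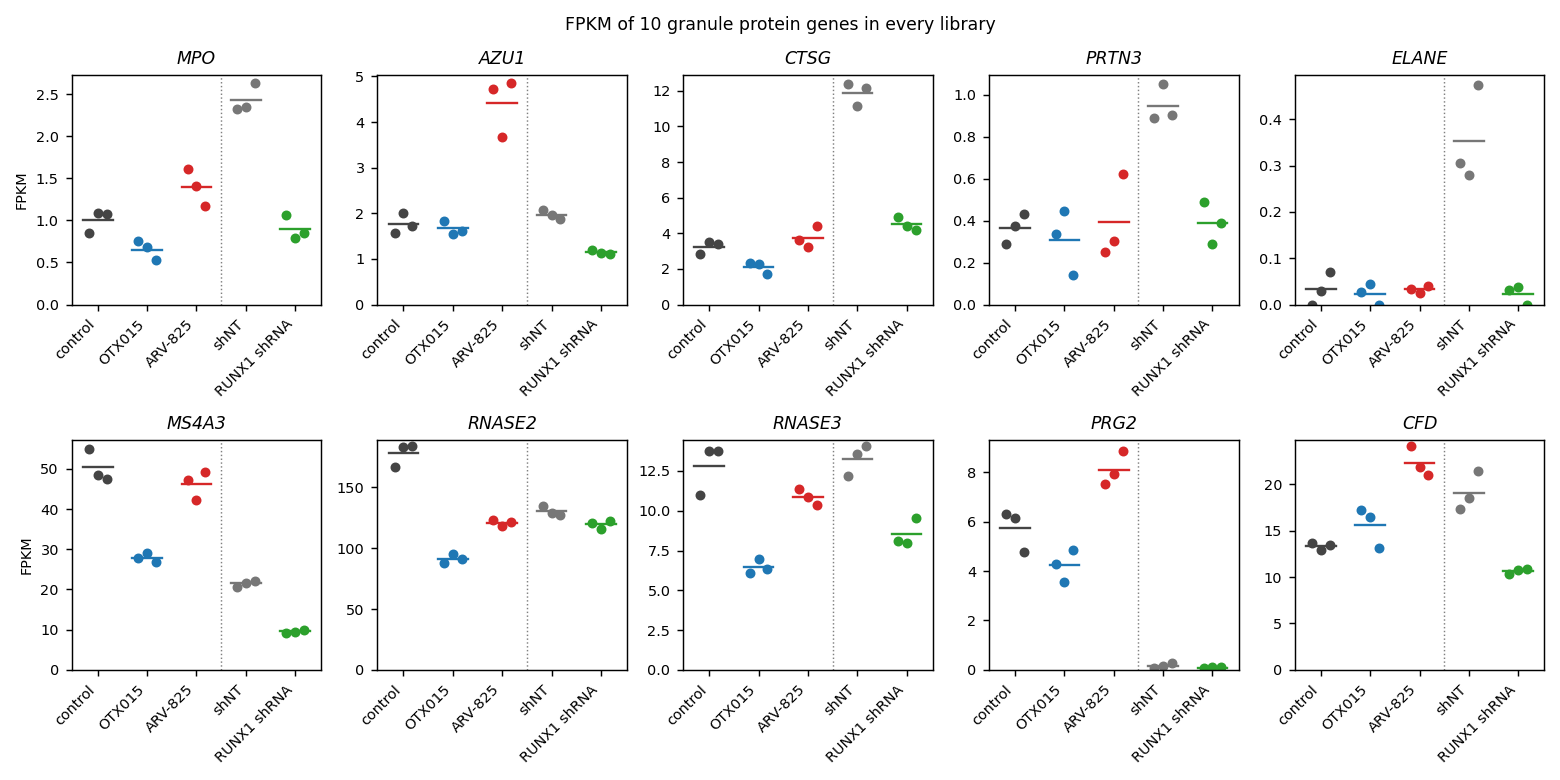
FPKM (linear axes starting at 0) of the 10 genes in each of the 15 libraries; points are libraries, horizontal lines are group means, and the dotted line separates the drug table from the shRNA table, which were normalized separately. In every panel with a tested gene the OTX015 points sit below the ARV-825 points, and the RUNX1 shRNA points sit below the shNT points in every panel except that of PRG2.

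Markers of eosinophils were close to 0: 0 of 7 eosinophil markers reached a mean of 1 FPKM, their summed level was between 0.0376 and 0.284 FPKM in every library, and CLC was listed at 0 in all 9 drug libraries. The neutrophil receptor CSF3R averaged 83.9 FPKM over the drug libraries, and 4 of 9 mature neutrophil markers reached a mean of 1 FPKM there. In control CXCR2 averaged 25.0, MMP25 6.67 and FPR1 3.14 FPKM, while CXCR1 and ALPL were near 0. Of 9 monocyte markers, 6 reached a mean of 1 FPKM in each table. A list of 20 genes, most of them of the later specific and gelatinase granules, was also mostly near 0. It also took in azurophil genes, the defensins DEFA1, DEFA3 and DEFA4 and BPI. Of the 20, 15 stayed below 0.5 FPKM in every drug library. Of these 15, 9 were listed at 0 in all 9 drug libraries, among them LTF and the azurophil DEFA4.

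As a check of the labels, RUNX1 read 69.8, 72.2 and 69.8 FPKM with shNT and 37.2, 42.9 and 36.03 FPKM with RUNX1 shRNA, a log2 change of -0.85 (SE 0.0589, limma adjusted p = 3.71e-05). Sample titles of the knockdown libraries name Runx3, but RUNX3 showed no call (0.07, adjusted p = 0.341), and the treatment label was followed. The summed FPKM of a library lay between 554570 and 656995. Sequencing depth is unknown here, so no counting interval could be attached. The library of ARV-825 replicate 1 lists 6 mitochondrial genes at 0, so a 0 in these tables may be a failed estimate. The labels call the 3 libraries of a group biologic triplicates without saying how they were separated, and p-values measure the spread between them.

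For the drugs, the question was how BET inhibition and BET degradation at the same concentration and time changed these genes. OTX015 lowered 6 of the 8 tested genes and raised none. ARV-825 raised MPO, AZU1, PRG2 and CFD against untreated cells and lowered RNASE2 and RNASE3. With values normalized within a table, each rise or fall is relative to the other genes, and total message per cell was not measured. Set directly against each other, all 8 tested genes were higher with ARV-825 than with OTX015, by 1.33-fold for RNASE2 up to 2.65-fold for AZU1 in mean FPKM, and in each of the 8 the 3 ARV-825 libraries lay above the 3 OTX015 libraries. Tests were run with limma on log2(FPKM + 1), which shrinks the apparent change of genes near 1 FPKM, and took in genes averaging 1 FPKM or more over the libraries of the table. ELANE and PRTN3 did not reach it. MPO reached it only with its ARV-825 libraries, at means of 1.40 FPKM there, 1.01 in control and 0.653 with OTX015. It is thus among the 8 through the group where it was highest, and its part in these counts is no separate support.

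Changes were common among all genes at this threshold, an adjusted p below 0.05. Of 10819 tested genes, 33.5% were lower and 36.1% higher with OTX015 than in control, beside 6 lower and 0 higher of the 8 granule genes. With ARV-825, 35.8% were higher and 38.4% lower than in control, beside 4 higher and 2 lower of the 8. Between the drugs, 24.7% were higher and 33.4% lower with ARV-825, beside 8 higher and 0 lower, and in 26.8% of all tested genes the ARV-825 libraries lay wholly above the OTX015 libraries. The median log2 change of the 8 genes was -0.41 with OTX015, 0.21 with ARV-825 and 0.64 between the drugs. The medians of all tested genes were 0.03, -0.01 and -0.04. Normalization within a table tends to keep such medians of all genes near 0, here and in the knockdown experiment. The comparisons share libraries, each pair having 1 group in common, and are not independent of each other. When no filter was applied and all 10 genes entered the test, 6 were lower with OTX015 (24.9% of 17105 genes were), 4 were higher and 1 lower with ARV-825 against control (25.8% and 29.2%), and 8 were higher with ARV-825 than with OTX015 (17.5%).

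**Figure D2:**
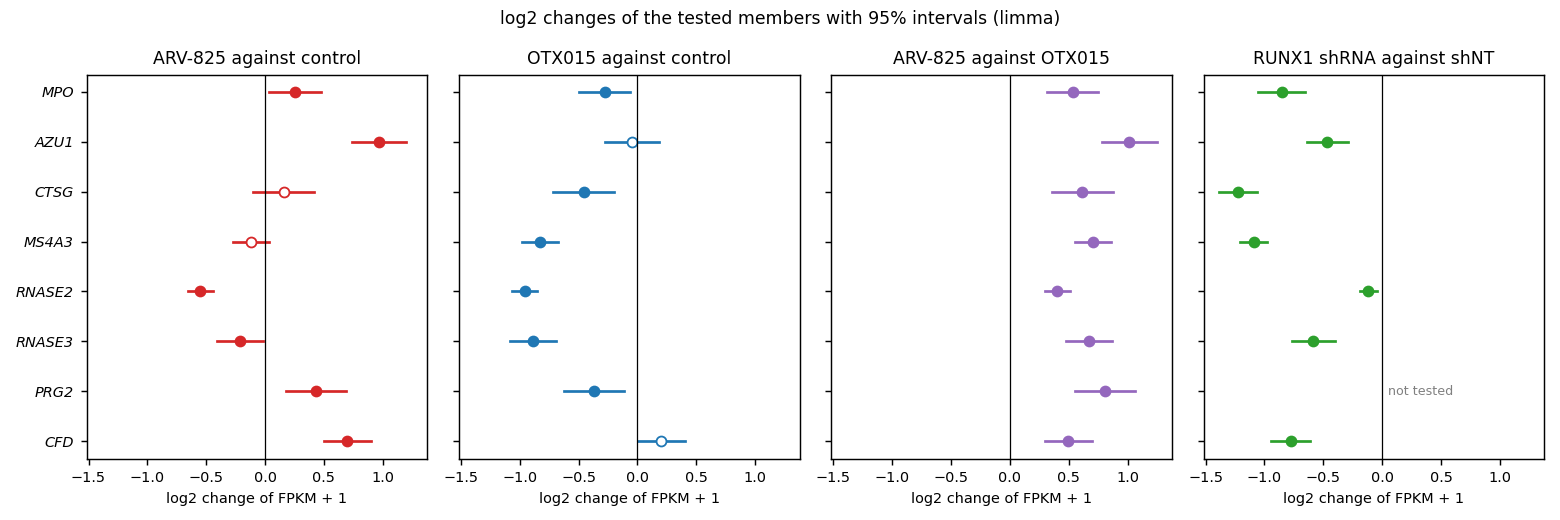
log2 change of FPKM + 1 (horizontal axes) with 95% intervals for the 8 genes tested in any table, in 4 comparisons; filled points had a limma adjusted p below 0.05, open points did not, and PRG2 was not tested in the shRNA table. All 8 points of the ARV-825 against OTX015 panel lie to the right of 0 and all 7 of the shRNA panel to the left.

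Among the azurophil genes, AZU1 (ENSG00000172232.9) showed the largest rise. It read 1.57, 2.00 and 1.72 FPKM in control, 1.84, 1.55 and 1.62 with OTX015, and 4.72, 3.67 and 4.85 with ARV-825. The ARV-825 libraries stood apart from all 6 others, while control and OTX015 overlapped. By limma the log2 change with ARV-825 was 0.97 against control (SE 0.104, adjusted p = 8.47e-06, 2.504-fold in mean FPKM) and 1.02 against OTX015 (adjusted p = 2.18e-05). OTX015 against control gave -0.05, with a 95% interval from -0.28 to 0.18.

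MPO (ENSG00000005381.7) was low in all 9 libraries, with 0.855, 1.09 and 1.07 FPKM in control, 0.752, 0.681 and 0.526 with OTX015, and 1.61, 1.41 and 1.17 with ARV-825. The 3 groups did not overlap. The log2 change by limma was -0.28 with OTX015 (SE 0.0985, adjusted p = 0.0258), 0.25 with ARV-825 (adjusted p = 0.0367) and 0.53 between the drugs (adjusted p = 9.38e-04). The first call was lost without OTX015 replicate 3 (adjusted p = 0.0930), control replicate 2 (0.0862) or control replicate 3 (0.0815), and the second without control replicate 1 (0.132), 2 (0.05001) or 3 (0.0580). MPO barely passed the filter on low values, and without any 1 of its ARV-825 libraries it was no longer tested.

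CTSG (ENSG00000100448.3) read 2.86, 3.50 and 3.39 FPKM in control, 2.32, 2.28 and 1.70 with OTX015, and 3.61, 3.22 and 4.43 with ARV-825. It fell with OTX015 in all 3 libraries, by 0.46 on the log2 scale (SE 0.117, limma adjusted p = 0.00496). The ARV-825 libraries overlapped control (0.16, 95% interval -0.10 to 0.42) and lay above OTX015 by 0.61 (adjusted p = 0.00114).

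The remaining azurophil proteases gave no difference in the drug experiment. PRTN3 (ENSG00000196415.9) lay between 0.139 and 0.623 FPKM and ELANE (ENSG00000197561.6) between 0 and 0.0696 FPKM over the 9 libraries, with all 3 groups overlapping. Exact two-sided permutation tests gave p from 0.7 to 0.9 for PRTN3 and from 0.7 to 1.0 for ELANE over the 3 comparisons, where 0.1 is the smallest p that 3 against 3 libraries allow. A difference in either gene was not detectable at these levels.

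MS4A3 (ENSG00000149516.13) was the second most abundant of the set. It read 54.9, 48.5 and 47.5 FPKM in control, 27.7, 29.2 and 26.8 with OTX015, and 47.2, 42.4 and 49.1 with ARV-825. OTX015 lowered it by 44.6% in mean FPKM (log2 change -0.83, SE 0.0682, limma adjusted p = 1.53e-06). ARV-825 left it overlapping control, at -0.12 with a 95% interval from -0.27 to 0.03, and above OTX015 by 0.71 (adjusted p = 1.49e-05).

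The eosinophil ribonucleases were lowest with OTX015. RNASE2 (ENSG00000169385.2) read 167, 183 and 184 FPKM in control, 88.0, 94.9 and 91.2 with OTX015, and 124, 119 and 121 with ARV-825, so the 3 groups were fully separate with ARV-825 in the middle. Its log2 change by limma was -0.96 with OTX015 (SE 0.0480, adjusted p = 3.98e-08), -0.55 with ARV-825 (adjusted p = 1.59e-06) and 0.40 between the drugs (adjusted p = 5.48e-05). The fall with OTX015 was the largest of the tested granule genes on this scale.

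RNASE3 (ENSG00000169397.3), the close copy of RNASE2, read 10.97, 13.8 and 13.8 FPKM in control, 6.10, 6.98 and 6.32 with OTX015, and 11.4, 10.9 and 10.4 with ARV-825. It fell by 49.6% in mean FPKM with OTX015 (log2 change -0.88, SE 0.0882, limma adjusted p = 6.40e-06). With ARV-825 it overlapped control and was only just called (-0.21, adjusted p = 0.0471). That call was lost without any 1 ARV-825 library (adjusted p = 0.0539, 0.0801 and 0.121 without replicates 1, 2 and 3), without control replicate 2 (0.165) or 3 (0.167), and without OTX015 replicate 1 (0.0556) or 3 (0.0554). ARV-825 against OTX015 gave 0.67 (adjusted p = 1.04e-04). Of 706 stretches of 50 bases in the RNASE2 transcript and 671 in that of RNASE3, 21 were identical between the genes, so reads from the 2 can be told apart over most of their length, and the division of shared reads remains uncertain.

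PRG2 (ENSG00000186652.9) differed from the ribonucleases in rising above control with ARV-825. It read 6.33, 6.16 and 4.78 FPKM in control, 4.27, 3.56 and 4.85 with OTX015, and 7.53, 7.91 and 8.87 with ARV-825. By limma its log2 change was 0.44 with ARV-825 against control (SE 0.116, adjusted p = 0.00561), 0.81 against OTX015 (adjusted p = 1.86e-04) and -0.37 with OTX015 against control (adjusted p = 0.0147), where the groups overlapped. The last call was lost without OTX015 replicate 2 (adjusted p = 0.0632), control replicate 1 (0.0594) or control replicate 2 (0.0565). PRG2 overlaps a second coding gene on the same strand, RP11-872D17.8, which the table lists at 0.849 to 3.80 FPKM, so the split of reads between them is uncertain.

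CFD (ENSG00000197766.7) was the other member of the chromosome 19 cluster to rise. It read 13.7, 12.9 and 13.4 FPKM in control, 17.2, 16.5 and 13.1 with OTX015, and 24.1, 21.9 and 21.0 with ARV-825. ARV-825 raised it by 67.2% in mean FPKM (log2 change 0.70, SE 0.0898, limma adjusted p = 3.39e-05), and it lay above OTX015 by 0.50 (adjusted p = 8.11e-04). OTX015 against control gave 0.20 (adjusted p = 0.0669). Without OTX015 replicate 3, the only OTX015 library inside the control range, this became 0.31 (adjusted p = 0.0020), a call in the higher direction.

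Members of the set had different profiles over the 9 drug libraries. Pearson's r on log2(FPKM + 1), given as a description over 9 libraries that share groups and normalization, ran from -0.34 for RNASE2 with CFD to 0.92 for RNASE2 with RNASE3, and was 0.92 for MS4A3 with RNASE3, 0.88 for AZU1 with CFD and -0.04 for AZU1 with RNASE2. RNASE2, RNASE3 and MS4A3 were highest in control and lowest with OTX015, in order of their group means. AZU1 and CFD were highest with ARV-825, with control and OTX015 overlapping. The gene outside the set whose profile was most like that of a member was NT5DC2 for MPO (r = 0.98), CCDC115 for AZU1 (0.99), HACL1 for CTSG (0.99), TARBP1 for MS4A3 (0.996), JOSD1 for PRG2 (0.96), CIDEB for RNASE2 (0.996), FAM127C for RNASE3 (0.99) and ARL6IP4 for CFD (0.99). Such likeness was common for RNASE2, with 313 genes at r of 0.95 or more, and rare for PRG2, with 1.

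Summed over the 10 genes, control libraries held 258.6 to 271.7 FPKM, OTX015 libraries 146.2 to 156.0, and ARV-825 libraries 210.3 to 224.0. RNASE2 alone made up 64.6% to 68.1% of the sum in control, and the share was 59.2% to 62.4% after OTX015 treatment and 54.7% to 56.4% after ARV-825. The ratio of RNASE2 to RNASE3 was 13.32 to 15.2 in control and 13.6 to 14.4 with OTX015, which overlapped, and 10.9 to 11.7 with ARV-825, below both. Monocytes also make RNASE2, and the level of their markers differed between the same groups: the summed level of the 9 markers lay between 234.6 and 248.8 FPKM in control, between 70.1 and 81.9 after OTX015 and between 113.1 and 130.2 after ARV-825, and 6 of 9 reached a mean of 1 FPKM. CD14 averaged 1.00, 0.390 and 0.648 FPKM in these groups, and CD163 was at or near 0. Of the 6 tested markers, 4 were lower and 2 higher with ARV-825 than in control (all tested genes 38.4% and 35.8%). The 2 were S100A8 (3.41 to 4.77 FPKM) and S100A9 (8.86 to 15.1 FPKM). With OTX015, 5 were lower and 0 higher (33.5% and 36.1%). The 9 mature neutrophil markers summed to 116.6 to 120.6 FPKM in control and 83.8 to 86.8 for OTX015, and the ARV-825 libraries lay between these groups, the highest at 111.5. CSF3R formed the bulk of this sum, with means of 82.5, 74.1 and 94.9 FPKM in control, OTX015 and ARV-825. CXCR2 averaged 25.0, 4.39 and 3.94 FPKM in the same order, and FPR1 3.14, 0.877 and 0.443. Of the 4 tested, 1 was higher and 2 lower with ARV-825 than in control (all tested genes 35.8% and 38.4%). With OTX015 it was 0 and 4 (36.1% and 33.5%). The 8 basophil and mast cell markers summed to 16.98 to 20.1 FPKM in control, 8.07 to 8.55 for OTX015 and 7.44 to 8.26 for ARV-825. GATA2 was lower with both drugs, and TPSAB1, the other tested gene of this list, was higher with both, at means of 1.54, 2.04 and 3.03 FPKM. The part of these cell types in the results was not tested. In bulk RNA, fewer cells of a type and less message per cell cannot be told apart.

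**Figure D3:**
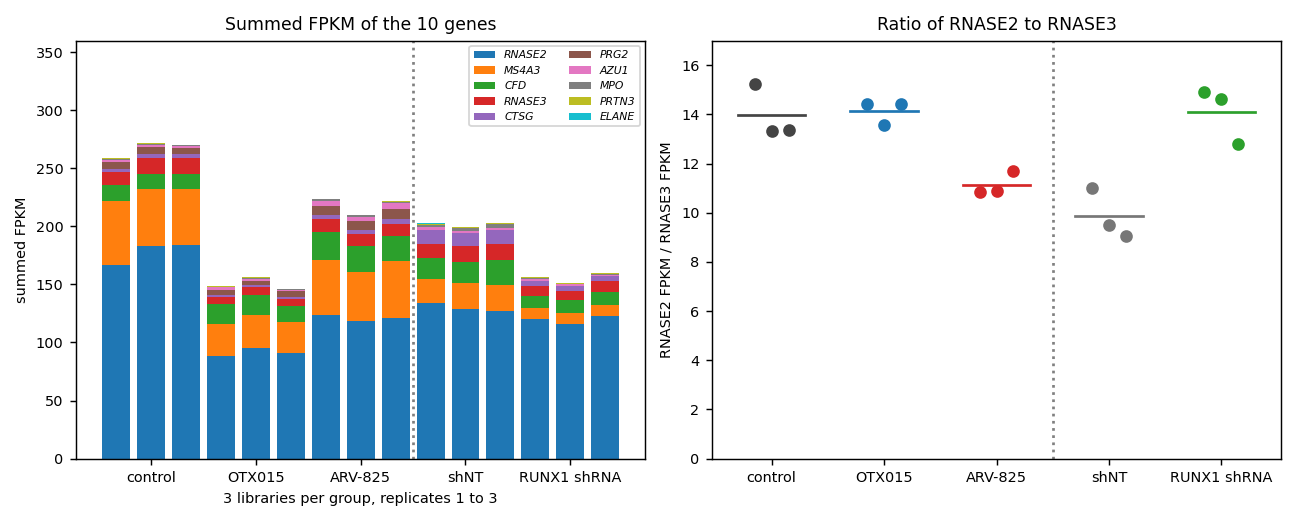
Left, stacked FPKM of the 10 genes in each library (bars start at 0, replicates 1 to 3 within a group); right, the ratio of RNASE2 to RNASE3 FPKM per library with group means as lines. The dotted lines separate the tables, which were normalized separately. RNASE2 forms the bulk of every bar, and the ratio is lower in the ARV-825 than in the control and OTX015 libraries and higher with RUNX1 shRNA than with shNT.

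In the knockdown experiment, the question was how these genes changed when RUNX1 was reduced. All 7 tested genes were lower in the cells with RUNX1 shRNA, and for each of them the 3 knockdown libraries lay below the 3 shNT libraries. The change in mean FPKM was -63.0% for MPO, -62.0% for CTSG, -55.6% for MS4A3, -44.1% for CFD, -41.8% for AZU1, -35.7% for RNASE3 and -8.0% for RNASE2. Of all 10925 tested genes, 13.8% were lower and 13.5% higher by limma, and 22.6% had the knockdown libraries wholly below shNT. The median log2 change was -0.78 for the 7 genes and -0.01 for all tested genes. MPO passed the filter through its shNT libraries, at a mean of 2.44 FPKM against 0.903 with RUNX1 shRNA. When no filter was applied and all 10 genes entered the test, 8 were lower (7.67% of 16527 genes were): ELANE and PRTN3 were then called, PRG2 was not, and RNASE2 no longer was (adjusted p = 0.0511).

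Among the azurophil genes, CTSG fell furthest on the log2 scale. It read 12.4, 11.1 and 12.2 FPKM with shNT and 4.94, 4.42 and 4.21 with RUNX1 shRNA (limma log2 change -1.22, SE 0.0702, adjusted p = 1.49e-05). MPO read 2.33, 2.35 and 2.63 FPKM with shNT and 1.06, 0.790 and 0.854 with the knockdown (-0.85, SE 0.0884, adjusted p = 3.13e-04), a mean 2.70-fold lower. AZU1 read 2.07, 1.97 and 1.88 FPKM against 1.21, 1.13 and 1.10 (-0.47, SE 0.0762, adjusted p = 0.00288). In each case the 2 groups were separated by a gap wider than the spread within either.

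PRTN3 and ELANE stayed below the filter but showed the same separation. PRTN3 read 0.891, 1.05 and 0.906 FPKM with shNT and 0.490, 0.288 and 0.387 with RUNX1 shRNA. ELANE read 0.305, 0.280 and 0.473 FPKM with shNT, and 0.0304, 0.0374 and a listed 0 with RUNX1 shRNA. Each gave an exact two-sided permutation p of 0.1, the smallest that 3 against 3 allows. In the unfiltered limma fit the log2 changes of FPKM + 1 were -0.49 for PRTN3 (SE 0.0642, adjusted p = 0.00761) and -0.40 for ELANE (SE 0.0563, adjusted p = 0.00946).

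MS4A3 read 20.7, 21.7 and 22.1 FPKM with shNT and 9.26, 9.41 and 9.97 with RUNX1 shRNA, a fall of 55.6% in mean FPKM (limma log2 change -1.09, SE 0.0486, adjusted p = 3.98e-06). CFD read 17.4, 18.5 and 21.5 FPKM with shNT and 10.4, 10.8 and 10.9 with the knockdown (-0.78, SE 0.0726, adjusted p = 1.84e-04). Both groups were again separate for each gene. AZU1, PRTN3, ELANE and CFD, the 4 consecutive genes on chromosome 19, all had their knockdown libraries below their shNT libraries. The same was so for 22.6% of all tested genes. PRTN3 and ELANE were below the filter and so outside that share, and ELANE was near the floor of the measurement.

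Both eosinophil ribonucleases were called lower, by amounts not tested against each other, and PRG2 was below the filter. RNASE3 read 12.2, 13.6 and 14.1 FPKM with shNT and 8.09, 7.95 and 9.57 with RUNX1 shRNA (limma log2 change -0.58, SE 0.0798, adjusted p = 0.00124). RNASE2, which shares with it the promoter stretch shown above, read 134, 129 and 127 FPKM with shNT and 121, 116 and 122 with the knockdown (-0.12, SE 0.0315, adjusted p = 0.0233). The RNASE2 call was lost without shNT replicate 1 (adjusted p = 0.0807), shNT replicate 2 (0.0581) or RUNX1 shRNA replicate 2 (0.0631). The ratio of RNASE2 to RNASE3 was 9.04 to 11.02 with shNT and 12.8 to 14.9 with the knockdown, with no overlap. PRG2 was at 0.0779, 0.140 and 0.264 FPKM with shNT and 0.0612, 0.0968 and 0.0954 with the knockdown, which overlapped (exact permutation p = 0.3).

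Summed over the 10 genes, shNT libraries held 199.9 to 203.1 FPKM and RUNX1 shRNA libraries 151.1 to 159.5. RNASE2 made up 62.6% to 66.3% of the sum with shNT and 76.8% to 77.2% with the knockdown. Monocyte markers did not fall as a sum: it was 183.0 to 189.7 FPKM with shNT and 210.7 to 220.5 with RUNX1 shRNA. Of 6 tested, 1 was called higher and 3 lower (all tested genes 13.5% and 13.8%). Basophil and mast cell markers summed to 14.9 to 15.2 FPKM with shNT and 22.5 to 24.8 with the knockdown, where GATA2 went from a mean of 13.2 to 22.6 FPKM. The next highest of them had lower means with the knockdown, 0.790 and 0.584 FPKM for TPSAB1 and 0.475 and 0.338 FPKM for TPSB2. Mature neutrophil markers summed to 87.3 to 91.2 FPKM with shNT and 91.4 to 100.9 with the knockdown. Their part in these results was not tested.

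Other azurophil granule, protease processing and inhibitor genes were all expressed, with 23 of 23 tested. With ARV-825 14 were higher and 4 lower than in control (all tested genes 35.8% and 38.4%), and with OTX015 7 and 8 (36.1% and 33.5%). Between the drugs, 15 were higher and 1 lower with ARV-825 (24.7% and 33.4%). With RUNX1 shRNA, 2 were higher and 6 lower (13.5% and 13.8%). PRSS57, a further azurophil serine protease encoded on chromosome 19, moved in the direction of AZU1 and CFD against control with ARV-825: 14.2 ± 0.289 FPKM in control, 12.1 ± 1.16 with OTX015 and 19.9 ± 1.05 with ARV-825 (SD, n = 3; limma log2 changes -0.22, 0.46 and, between the drugs, 0.68, with adjusted p = 0.0172, 1.22e-04 and 2.24e-05). It fell from 58.3 ± 2.42 to 31.9 ± 0.803 FPKM with RUNX1 shRNA (-0.85, adjusted p = 4.12e-06).

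CST7, which encodes cystatin F, an inhibitor of the cathepsin C that activates the granule proteases, read 35.9 ± 0.158 FPKM in control, 23.5 ± 2.17 with OTX015 (limma log2 change -0.59, adjusted p = 2.25e-05) and 38.2 ± 2.89 with ARV-825 (0.08, adjusted p = 0.297), and fell by 0.92 on the log2 scale with RUNX1 shRNA (adjusted p = 1.67e-04). SRGN encodes serglycin, the proteoglycan on which granule proteins are packed, and read 1782 ± 118.6 FPKM in control, 946 ± 38.0 with OTX015 and 1174 ± 38.8 with ARV-825, called lower with both drugs. It also fell with the knockdown, from 843 ± 12.9 to 549 ± 34.4 FPKM (-0.62, adjusted p = 3.67e-05). SERPINB8, a serine protease inhibitor, fell with both drugs (-0.84 with OTX015 and -0.91 with ARV-825) and with the knockdown (-0.64). FUCA1, a lysosomal hydrolase, was among the genes higher with ARV-825, with a log2 change of 0.67, and was not called with the knockdown (-0.04).

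Of the list of specific and gelatinase granule genes, which also held the defensins and BPI, 4 of 20 were tested in the drug table and 2 in the shRNA table. LYZ (lysozyme) read 568 ± 22.9 FPKM in control, 411 ± 3.95 with OTX015 and 499 ± 24.3 with ARV-825, called lower with both drugs and higher with ARV-825 than with OTX015 by 0.28 (limma adjusted p = 9.16e-04). It fell from 542 ± 9.81 to 366 ± 4.46 FPKM with RUNX1 shRNA (-0.56, adjusted p = 3.57e-06). HP (haptoglobin) fell by 0.65 with OTX015 (adjusted p = 7.94e-05), was not called with ARV-825 (0.10) and was 0.75 higher between the drugs. CHI3L1, a chitinase-like protein, was higher with ARV-825 than in control by 0.35 (limma adjusted p = 0.0137). It averaged 0.960 FPKM in control, 0.930 with OTX015 and 1.51 with ARV-825. CHI3L1 thus passed the filter only through its ARV-825 libraries, and its part in the counts that follow is no separate support. Over the 4, ARV-825 against control gave 1 higher and 1 lower (all tested genes 35.8% and 38.4%). OTX015 against control gave 0 and 2 (36.1% and 33.5%), and ARV-825 against OTX015 3 and 0 (24.7% and 33.4%). With the knockdown, 0 of 2 were higher and 1 was lower (13.5% and 13.8%).

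Genes of protein folding, vesicle traffic and inherited neutropenia were mixed. Of 16 tested, 10 were higher and 5 lower with ARV-825 than in control (all tested genes 35.8% and 38.4%), and 5 and 6 with OTX015 (36.1% and 33.5%). With ARV-825 against OTX015 it was 4 and 2 (24.7% and 33.4%), and with the knockdown 3 and 3 (13.5% and 13.8%). LYST, the lysosomal trafficking gene of Chediak-Higashi syndrome, fell with both drugs by limma (-0.88 with ARV-825 and -1.04 with OTX015), as did WAS (-0.61 and -0.69). CXCR4, the chemokine receptor that holds neutrophils in the marrow, was lower with ARV-825 (-0.78, adjusted p = 3.54e-04) and with RUNX1 shRNA (-0.60, adjusted p = 6.95e-04) but not called with OTX015 (0.20). VPS13B rose with ARV-825 (0.71).

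The transcription factors that control granulocyte genes were mostly lower with ARV-825. Of 21 tested, 2 were higher and 17 lower with ARV-825 than in control (all tested genes 35.8% and 38.4%), and 5 and 11 with OTX015 (36.1% and 33.5%). With ARV-825 against OTX015 these factors gave 1 and 18, where the background was 24.7% higher and 33.4% lower. Their median log2 change was -0.66, -0.15 and -0.55 in the 3 comparisons. MYB, a driver of immature myeloid cells, read 180.5 ± 2.88 FPKM in control, 82.6 ± 4.23 with OTX015 and 26.1 ± 0.538 with ARV-825 (limma log2 change -1.12 and -2.74, adjusted p = 6.37e-09 and 2.23e-11). CEBPE, needed for the later granules, read 16.1 ± 1.15, 3.32 ± 0.333 and 2.55 ± 0.293 FPKM in the same order. GFI1, a repressor required for neutrophil formation, read 70.2 ± 0.106, 54.1 ± 1.31 and 18.4 ± 0.685 FPKM. GATA2 read 15.5 ± 1.79, 5.20 ± 0.156 and 3.58 ± 0.139 FPKM. Each of these 4 was called lower with ARV-825 than with OTX015, the opposite direction to the 8 tested granule genes.

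RUNX1 itself read 61.7, 63.3 and 59.2 FPKM in control, 52.1, 52.4 and 61.3 with OTX015 and 35.9, 38.8 and 34.1 with ARV-825 (limma log2 change -0.15, adjusted p = 0.0668, and -0.75, adjusted p = 2.38e-06). Its message level was thus in a similar range with ARV-825 as with RUNX1 shRNA, though in separately normalized tables. The drug and the shRNA also differed in exposure time, and RUNX1 protein was not measured. MPO, AZU1 and CFD were called higher with ARV-825 and lower with the shRNA, while RNASE2 and RNASE3 were called lower with both. The calls of MPO and RNASE3 with ARV-825 and of RNASE2 with the shRNA were lost in several alternative fits. MPO also passed the filter only through its ARV-825 and its shNT libraries, where it was highest. Whether the lower RUNX1 level had a part in the ARV-825 results was not tested. With the knockdown, 7 of 20 tested regulators were higher and 5 lower (median 0.06), beside 13.5% and 13.8% of all tested genes. MYB (-0.08, adjusted p = 0.0707) and CEBPE (0.04, adjusted p = 0.625) were not called, and GFI1 (0.24, adjusted p = 6.01e-04) and GATA2 (0.73, adjusted p = 3.24e-05) were higher.

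**Figure D4:**
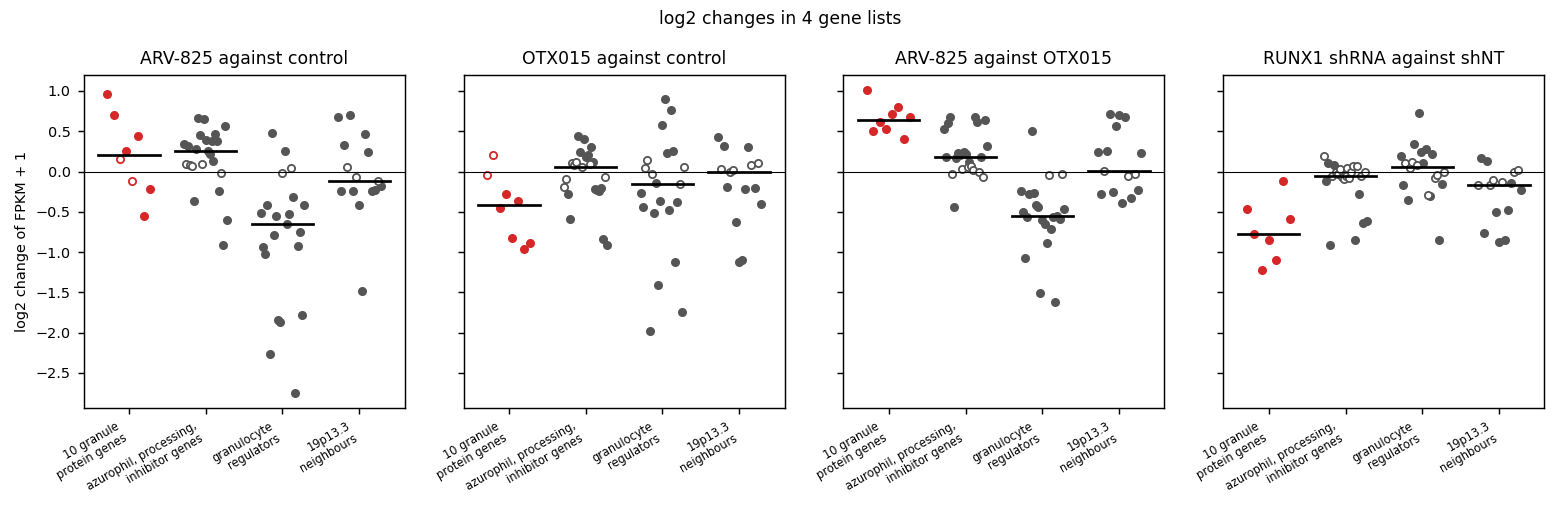
log2 change of FPKM + 1 (vertical axis) of each tested gene in 4 lists, by comparison; red points are the granule protein genes, grey points the other lists, filled points had a limma adjusted p below 0.05 and black lines are list medians. In the ARV-825 against OTX015 panel the granule protein genes have a median of 0.64 and the regulators a median of -0.55.

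Neighbors of the chromosome 19 cluster had calls in both directions. Of 15 tested, 5 were higher and 7 lower with ARV-825 than in control (all tested genes 35.8% and 38.4%), and 3 and 7 with OTX015 (36.1% and 33.5%). With ARV-825 against OTX015 it was 7 and 5 (24.7% and 33.4%), and with the knockdown 2 and 7 (13.5% and 13.8%). PLPPR3, the coding gene next to AZU1, read 19.9 ± 1.39 FPKM in control, 8.65 ± 0.887 with OTX015 and 14.6 ± 0.947 with ARV-825, so it was below control with both drugs and above OTX015 with ARV-825 (limma log2 change 0.70, adjusted p = 4.79e-05). With RUNX1 shRNA it fell from 41.8 ± 1.72 to 22.4 ± 2.23 FPKM (-0.88, adjusted p = 6.04e-05). BSG (basigin) also fell with the knockdown (-0.77, adjusted p = 9.73e-07) but was higher with both drugs (0.33 with ARV-825 and 0.32 with OTX015). POLRMT, the mitochondrial RNA polymerase, fell with both drugs (-1.48 and -1.10) and was not called with the knockdown (-0.13).

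Next to MPO on chromosome 17, BZRAP1 (the older symbol of TSPOAP1) had calls in the same directions as MPO. It read 9.86 ± 0.209 FPKM in control, 6.77 ± 0.965 with OTX015 and 27.0 ± 1.69 with ARV-825, and 22.1 ± 0.757 with shNT against 9.57 ± 0.556 with RUNX1 shRNA. By limma its log2 change was -0.49, 1.36 and, with the knockdown, -1.13 (adjusted p = 3.52e-04, 1.11e-07 and 4.53e-06). SUPT4H1, one gene further, was higher with both drugs (0.66 with ARV-825 and 0.54 with OTX015) and lower with the knockdown (-0.30). LPO, the lactoperoxidase gene on the other side, was lower with both drugs (-0.38 and -0.44) and not called with the knockdown (-0.17).

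Neighbors of PRG2, RNASE2 and MS4A3 were also tested. SLC43A3, next to PRG2, fell with ARV-825 by 1.69 and with OTX015 by 1.64 on the log2 scale, and rose by 0.23 with the knockdown. SSRP1 also fell with both drugs (-0.43 and -0.50). METTL17, next to RNASE2, rose with ARV-825 (0.36, limma adjusted p = 1.38e-04) and was not called with OTX015 (0.13) or the knockdown (-0.12). Of 6 tested neighbors of MS4A3, 1 was higher and 5 lower with ARV-825 than in control (all tested genes 35.8% and 38.4%). With OTX015 it was 1 and 4 (36.1% and 33.5%). The 4 with the largest called changes, MS4A6A, MS4A4A, MS4A7 and MPEG1, all fell with both drugs. Their falls were 0.79 to 1.83 on the log2 scale with ARV-825 and 1.28 to 1.74 with OTX015. With the knockdown MPEG1 (-0.37) and MS4A6A (-0.22) were lower and the other two were not called. The 3 genes around CTSG were below 0.5 FPKM in every library of both tables and were not tested.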

How the data were processed

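Total RNA libraries of OCI-AML5 were sequenced. The submitters' processing notes list TopHat2 2.0, Cufflinks 2.0 and hg19. The deposited values were read as FPKM, quantile normalized within each of 2 tables (9 drug libraries, 6 shRNA libraries), per the files' own names and values. No test crosses the tables. Each table had 19620 entries, of which 16 pseudoautosomal Y copies were left out. Groups follow the treatment labels.

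Genes averaging 1 FPKM or more were fitted on log2(FPKM + 1) with limma 3.58.1 (R 4.3.3, lmFit and eBayes with trend), 1 fit per table. P-values were Benjamini-Hochberg adjusted over all tested genes, with a threshold of 0.05. The script was tested on simulated data. Alternatives were a pseudocount of 0.1, no filter, a mean of 5 FPKM, median-ratio rescaling, a replicate block, no trend, only the groups compared, and each library left out. Promoters are from RefSeq (GRCh38.p14); hg19 coordinates were not used.

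Members, lists and tests were chosen with earlier results of these data known. Named genes were all members, up to 4 called genes per list with the largest change, and the most alike gene of each tested member; FUCA1, marker genes, RUNX genes and genes listed at 0 were named after their values were seen.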

Additional observations from a re-analysis of the deposited data

How the results depend on the processing

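Over 31 log2 changes of the granule genes and 447 alternative values, 417 kept their direction and side of the threshold, and 24 results did so throughout. In many of these fits only the adjusted p could change. The log2 change is the same by construction under another filter, the replicate block, no trend or only the groups compared. This also holds when the library left out is in neither group. Fits in which a gene was not tested gave no value. The 1 reversal was AZU1 with OTX015 against control, not called in any fit, which ranged from -0.10 to 0.01 over fits that left out 1 library (0.0127 without control replicate 2). Deviations of same-numbered libraries correlated between -0.32 and 0.06, and not every library correlated best with its own number. In the shRNA libraries same-numbered pairs gave -0.003 to 0.0612 and other pairs -0.0704 to 0.0222. With 3 libraries per group this cannot tell whether libraries were paired by number. With the replicate number as a block, 4, 7, 8 and 7 granule genes were called (6, 6, 8 and 7 without it) for ARV-825 and OTX015 against control, ARV-825 against OTX015 and the knockdown, and 7771, 7262, 5884 and 2585 of all genes. MPO (adjusted p = 0.0515) and RNASE3 (0.0557) lost their ARV-825 calls under the block and CFD gained one with OTX015 (0.0446). MPO with ARV-825 was also lost at a pseudocount of 0.1 (0.0557), RNASE3 with ARV-825 without a filter (0.0792), after rescaling (0.0525) and with only the 2 groups compared (0.0595), and RNASE2 with the knockdown without a filter (0.0511) or trend (0.0759). At a mean of 5 FPKM, 5 granule genes were tested and 5 called higher with ARV-825 than with OTX015. Leaving out 1 library at a time gave 4 to 6, 4 to 6, 7 to 8 and 6 to 7 called granule genes in the same order, and 7492 to 8102, 6895 to 7689, 5573 to 6267 and 1997 to 2840 of all genes. Without ARV-825 replicate 1, which lists mitochondrial genes at 0, 7 granule genes were tested, with 4 called against control and 7 against OTX015.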
